A study of Mus musculus with 24 samples.

Results

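The proteasome genes analysed here were the 49 genes whose mouse symbol begins with Psma, Psmb, Psmc, Psmd, Psme, Psmf or Psmg followed by a digit, of 16730 genes in the deposited tables. All 49 passed the expression filter, a level of 1 CPM (read counts scaled by library size) or more in 3 or more mice, as did 15020 genes in all. Epididymal white adipose tissue (eWAT) of 24 male littermates was sequenced from the 3′ ends of transcripts, with 6 mice in each of 4 groups. Mice carried floxed *Lama4* alleles (exon 3 between loxP sites) without Cre (*Lama4* fl/fl) or with adiponectin-Cre, which acts in adipocytes (*Lama4* AKO), and ate chow (LabDiet 5015) or a high-fat diet (HFD, 45% fat) for 20 weeks, to an age of 24 to 26 weeks. *Lama4* encodes the laminin alpha 4 chain of the basement membrane around adipocytes and blood vessels, and the floxed allele was present in all 4 groups.

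The proteasome degrades proteins tagged with ubiquitin. Its core particle is a barrel of alpha and beta rings with 3 catalytic subunits in each beta ring, and a regulatory particle of ATPase and non-ATPase subunits recognises, unfolds and feeds in the substrate. Interferon-gamma induces replacement catalytic subunits that form the immunoproteasome, and a cap of Psme1 and Psme2, which widens the pool of peptides for MHC class I. Immune cells, including the macrophages and T cells that reside in white fat, express the replacement subunits at rest, whereas most other cells express them little until stimulated. In bulk tissue, fewer cells of a type and less RNA per cell cannot be told apart.

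Of the libraries, totals lay between 5579590 and 18764516 counts. All 8 adipocyte markers were detected in all libraries, and their summed level lay between 8433 and 48935 CPM. Of 12 leukocyte markers, 11 had counts in every library, and *Cd79a*, a B cell gene, had libraries at 0. The summed leukocyte level had a median of 3019 CPM in chow-fed fl/fl, 2038 in chow-fed AKO, 3222 in HFD-fed fl/fl and 4137 in HFD-fed AKO mice. Of 4 epididymis markers, 2 were in the table and neither passed the filter. The deletion was checked first: *Lama4* was not called between the libraries labelled AKO and fl/fl on chow (log2 fold change 0.12, SE 0.34, edgeR adjusted p = 0.974) or on HFD (−0.70, SE 0.34, adjusted p = 0.338). Exon 3 lies far from the 3′ end read here, so these counts need not show its loss, and the direction of every genotype comparison rests on the labels.

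The immunoproteasome was set against the constitutive proteasome because both kinds of gene were present in each library. *Psmb8*, *Psmb9* and *Psmb10* encode the catalytic subunits that take the places of *Psmb5*, *Psmb6* and *Psmb7*, and *Psme1* and *Psme2* encode the alpha and beta chains of the cap. The promoters of 4 of these 5 genes are printed here because their transcripts moved together in some mice and apart in others, as described after them. The windows run from 250 bases before a transcription start to 50 after it and come from RefSeq on GRCm38.p6. Such a window was found for 41 of the 49 genes. Those of *Psmb8*, *Psmb9* and *Psme1* lie wholly inside the genes as placed by GENCODE. These genes begin upstream of their windows, at chr17:34197721, chr17:34187764 and chr14:55578123. A match or its absence therefore describes the printed window only. Capitals mark matches to the motifs GAAA repeated after any 2 bases (an interferon-response element core), TTCNNNGAA (a STAT core), CCAAT (an NF-Y core) and TGACNNNGC (a core like that bound by NFE2L1), searched on both strands.

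The windows are *Psmb8* on the plus strand at chr17:34197945-34198244, *Psmb9* on the minus strand at chr17:34187281-34187580, *Psmb10* on the minus strand at chr8:105938343-105938642 and *Psme1* on the plus strand at chr14:55578244-55578543:
Psmb8: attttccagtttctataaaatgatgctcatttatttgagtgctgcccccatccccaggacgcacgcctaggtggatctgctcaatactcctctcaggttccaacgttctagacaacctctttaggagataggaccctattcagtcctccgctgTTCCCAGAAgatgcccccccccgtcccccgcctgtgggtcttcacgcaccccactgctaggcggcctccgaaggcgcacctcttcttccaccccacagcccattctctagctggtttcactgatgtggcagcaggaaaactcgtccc
Psmb9: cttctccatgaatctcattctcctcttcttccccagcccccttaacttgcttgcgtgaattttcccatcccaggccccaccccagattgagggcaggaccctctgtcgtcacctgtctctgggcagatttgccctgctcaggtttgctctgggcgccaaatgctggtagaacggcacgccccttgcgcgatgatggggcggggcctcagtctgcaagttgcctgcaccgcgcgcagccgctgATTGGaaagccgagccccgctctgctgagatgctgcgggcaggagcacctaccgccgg
Psmb10: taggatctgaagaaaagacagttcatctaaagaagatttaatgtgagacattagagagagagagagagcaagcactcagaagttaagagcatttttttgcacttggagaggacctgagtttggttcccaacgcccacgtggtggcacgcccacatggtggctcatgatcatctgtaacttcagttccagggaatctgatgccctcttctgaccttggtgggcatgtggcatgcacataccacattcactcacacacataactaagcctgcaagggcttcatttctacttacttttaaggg
Psme1: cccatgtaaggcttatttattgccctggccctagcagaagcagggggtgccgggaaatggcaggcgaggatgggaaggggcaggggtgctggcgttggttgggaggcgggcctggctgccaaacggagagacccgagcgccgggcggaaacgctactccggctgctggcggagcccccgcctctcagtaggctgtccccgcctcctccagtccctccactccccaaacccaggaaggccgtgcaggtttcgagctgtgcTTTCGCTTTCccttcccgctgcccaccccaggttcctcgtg

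*Psmb8* held the STAT core at bases 154 to 162 of its window, where it reads the same on both strands. *Psme1* held the interferon-response core on the minus strand at bases 260 to 269, just past the start. *Psmb9* held a CCAAT match and *Psmb10* none of the 4 motifs. Over 32851 promoters of the same length, the interferon-response core was present in 3.44%, TTCNNNGAA in 8.3%, CCAAT in 37.4% and TGACNNNGC in 12.4%. Of the 41 proteasome genes with a window, 12.2%, 7.32%, 34.1% and 14.6% held a match, in the same order of motifs. The former shares count promoters and the latter count genes, so they are in unlike units and cannot be compared directly. A match is a description of letters and not a site of binding. The window of *Psmb9* shares 275 bases with that of *Tap1*, the peptide transporter gene transcribed in the opposite direction.

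*Psmb8* varied more between mice of a group than any other proteasome gene. Its level lay between 48.5 and 191 CPM in chow-fed fl/fl mice (median 104), between 65.9 and 282 in chow-fed AKO mice (median 88.1), between 56.9 and 412 in HFD-fed fl/fl mice (median 118) and between 93.6 and 178 in HFD-fed AKO mice (median 110). All 4 groups overlapped. The HFD-fed fl/fl mice were spread most widely: mice 1 and 5 had 412 and 295 CPM, mouse 2 had 153, and mice 3, 4 and 6 had 83.5, 56.9 and 77.5. Mouse 6 of the chow-fed AKO group, at 282 CPM, stood apart from the other 5 mice of its group, which had at most 95.9.

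The HFD difference in *Psmb8* was 0.72 on the log2 scale in fl/fl mice (SE 0.44, edgeR adjusted p = 0.632) and 0.10 in AKO mice (SE 0.44, adjusted p = 0.883), and neither was called. The size of these values depended on single mice. With each mouse left out the fl/fl difference stayed above 0, and the AKO difference took both signs. Without HFD-fed fl/fl mouse 1 the fl/fl difference was 0.25, without chow-fed fl/fl mouse 3 it was 0.92, and without chow-fed AKO mouse 6 the AKO difference was 0.60. The interaction of diet and genotype was −0.62 (SE 0.62, adjusted p = 0.603).

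*Psmb10*, the replacement for *Psmb7*, followed the same mice. It ranged from 45.6 to 138 CPM in chow-fed fl/fl (median 88.0), 64.9 to 158 in chow-fed AKO (median 81.1), 63.5 to 194 in HFD-fed fl/fl (median 117) and 78.1 to 114 in HFD-fed AKO mice (median 92.4). The highest mouse of each of the first 3 groups was the one highest in *Psmb8*, and the groups overlapped. Its HFD difference was 0.49 in fl/fl (SE 0.27, adjusted p = 0.599), or 0.28 without HFD-fed fl/fl mouse 1, and 0.01 in AKO mice (SE 0.27, adjusted p = 0.976), with no stable sign in the latter.

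*Psmb9*, the replacement for *Psmb6*, did not follow them. It ranged from 23.7 to 52.0 CPM in chow-fed fl/fl (median 39.6), 20.7 to 132 in chow-fed AKO (median 41.0), 16.6 to 54.4 in HFD-fed fl/fl (median 38.3) and 27.6 to 55.1 in HFD-fed AKO mice (median 34.0). Chow-fed AKO mouse 6 was again the highest of all 24, but HFD-fed fl/fl mouse 1, the highest in *Psmb8*, had 31.8 CPM and HFD-fed fl/fl mouse 2 had the lowest level of all. The HFD difference was −0.06 in fl/fl (SE 0.34, adjusted p = 0.972) and −0.59 in AKO mice (SE 0.34, adjusted p = 0.194), or −0.10 without chow-fed AKO mouse 6.

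The cap genes separated in the same way, although their products assemble into 1 ring. *Psme1* ranged from 106 to 148 CPM in chow-fed fl/fl (median 121), 107 to 229 in chow-fed AKO (median 125), 103 to 267 in HFD-fed fl/fl (median 129) and 101 to 134 in HFD-fed AKO mice (median 113). *Psme2* ranged from 75.2 to 121 (median 113), 63.3 to 150 (median 103), 61.6 to 130 (median 102) and 64.4 to 110 CPM (median 87.7) in the same groups. HFD-fed fl/fl mouse 1 was the highest of all mice for *Psme1* and the lowest for *Psme2*, so its ratio of *Psme1* to *Psme2* was 4.34, against 0.820 to 2.33 in the other mice of its group. Chow-fed AKO mouse 6 was high in both. *Psme1* differed by 0.28 with HFD in fl/fl (SE 0.21, adjusted p = 0.710), or 0.01 without HFD-fed fl/fl mouse 1, and by −0.28 in AKO mice (SE 0.21, adjusted p = 0.326), or −0.08 without chow-fed AKO mouse 6. The last 1000 bases of *Psme1* overlap *Emc9* on the opposite strand, and whether counting used strand is not given in the sources used here. For *Psme2* the differences were −0.17 (SE 0.19, adjusted p = 0.812) and −0.25 (SE 0.20, adjusted p = 0.339), or −0.09 without HFD-fed fl/fl mouse 1 and −0.11 without chow-fed AKO mouse 6.

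**Figure D1:**
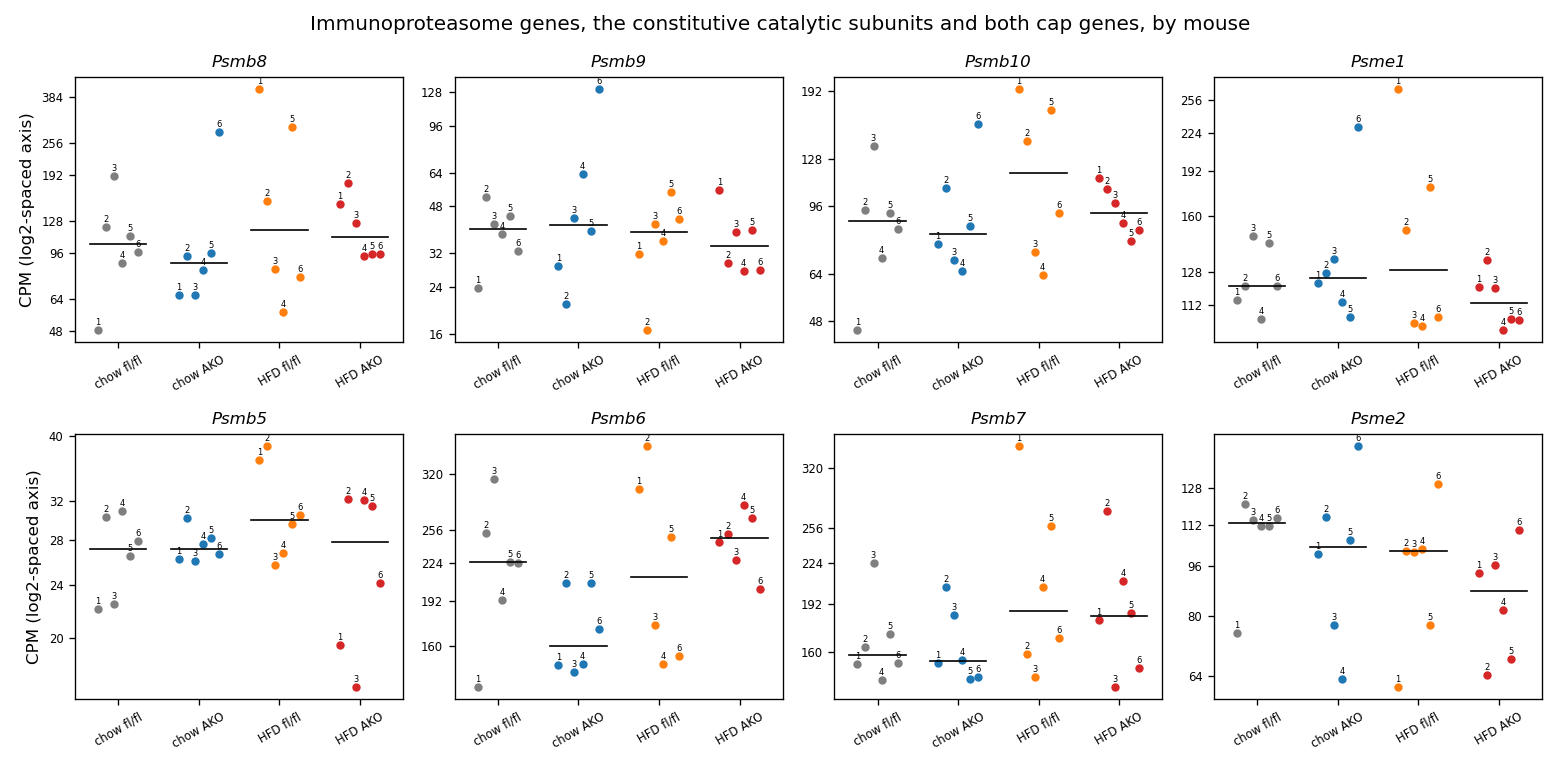
CPM of 8 genes on a log2-spaced axis, 1 point per mouse with its replicate number, in the 4 groups of 6 mice, and a line at each group's median. *Psmb8*, *Psmb10* and *Psme1* were highest in HFD-fed fl/fl mouse 1 (412, 194 and 267 CPM), where *Psmb9* had 31.8 and *Psme2* 61.6 CPM.

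The constitutive catalytic subunits had smaller within-group spreads than the subunits that replace them, with SDs of 0.26, 0.37 and 0.33 in log2 CPM for *Psmb5*, *Psmb6* and *Psmb7*. *Psmb5* lay between 16.9 and 38.6 CPM over all mice, *Psmb6* between 136 and 359 and *Psmb7* between 140 and 348, and the groups overlapped for each. In fl/fl mice their HFD differences were 0.23 (SE 0.15, adjusted p = 0.663), 0.04 (SE 0.21, adjusted p = 0.966) and 0.35 (SE 0.19, adjusted p = 0.599), and in AKO mice −0.08 (SE 0.15, adjusted p = 0.719), 0.52 (SE 0.21, adjusted p = 0.0682) and 0.20 (SE 0.19, adjusted p = 0.437). *Psmb6* was called in AKO mice by DESeq2 only among the tools run on 24 mice. The ratio of *Psmb8* to *Psmb5* counts, which are not divided by length, had group medians between 3.04 and 4.74 and reached 10.6 in chow-fed AKO mouse 6 and 11.2 in HFD-fed fl/fl mouse 1. The ratio of *Psmb9* to *Psmb6* reached 0.768 in the former mouse, where the median of its group was 0.247.

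Mouse-to-mouse variation was compared over the groups as the SD of log2 CPM within them. It was 0.79 for *Psmb8*, a value exceeded by 15.2% of the genes tested, 0.62 for *Psmb9*, 0.50 for *Psmb10*, 0.36 for *Psme1* and 0.35 for *Psme2*. The median was 0.50 for these 5 genes, 0.28 for the other 44 and 0.42 for all 15020 genes. The steadiest were *Psmd1*, the large scaffold of the regulatory particle, at 0.17, and *Psmc3*, an ATPase, at 0.18.

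The relations between these genes were computed on the deviations from the group means, so that group differences played no part (n = 24, permutation within groups, two-sided, adjusted over 28 relations). *Psmb8* went with *Psmb10* (Pearson's r 0.94, Spearman's rho 0.93) and with *Psme1* (r 0.90, rho 0.85), each with an adjusted permutation p of at most 0.00044. Without the 2 mice farthest from the median, HFD-fed fl/fl mouse 1 and chow-fed AKO mouse 6, r was 0.93 and 0.82. *Psmb10* and *Psme1* also went together (r 0.83, rho 0.84). *Psmb8* and *Psmb9* had r 0.39 and rho 0.29 (adjusted permutation p = 0.178 and 0.308), *Psmb8* and *Psme2* r −0.03, and *Psme1* and *Psme2* r −0.15. These pairs were chosen after the values had been seen.

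*Tap1*, whose promoter window lies almost wholly on that of *Psmb9*, went with *Psmb8* (r 0.97, rho 0.93, adjusted permutation p = 5.6e-05 and 0.00014, r 0.94 without the same 2 mice). The pairs with *Tap1* were also chosen after the values had been seen. With *Psmb9* itself *Tap1* had r 0.41 and rho 0.31 (adjusted permutation p = 0.178 and 0.291). The genes of *Psmb9* and *Tap1* overlap at their starts on opposite strands, and the 3′ ends, where these libraries read, do not. *Tap1* had 228 CPM in HFD-fed fl/fl mouse 1, 156 in mouse 5 and 147 in chow-fed AKO mouse 6, with group medians between 32.2 and 49.9 CPM. Its HFD difference was 1.17 in fl/fl (SE 0.54, adjusted p = 0.510) and −0.14 in AKO mice (SE 0.53, adjusted p = 0.866).

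**Figure D2:**
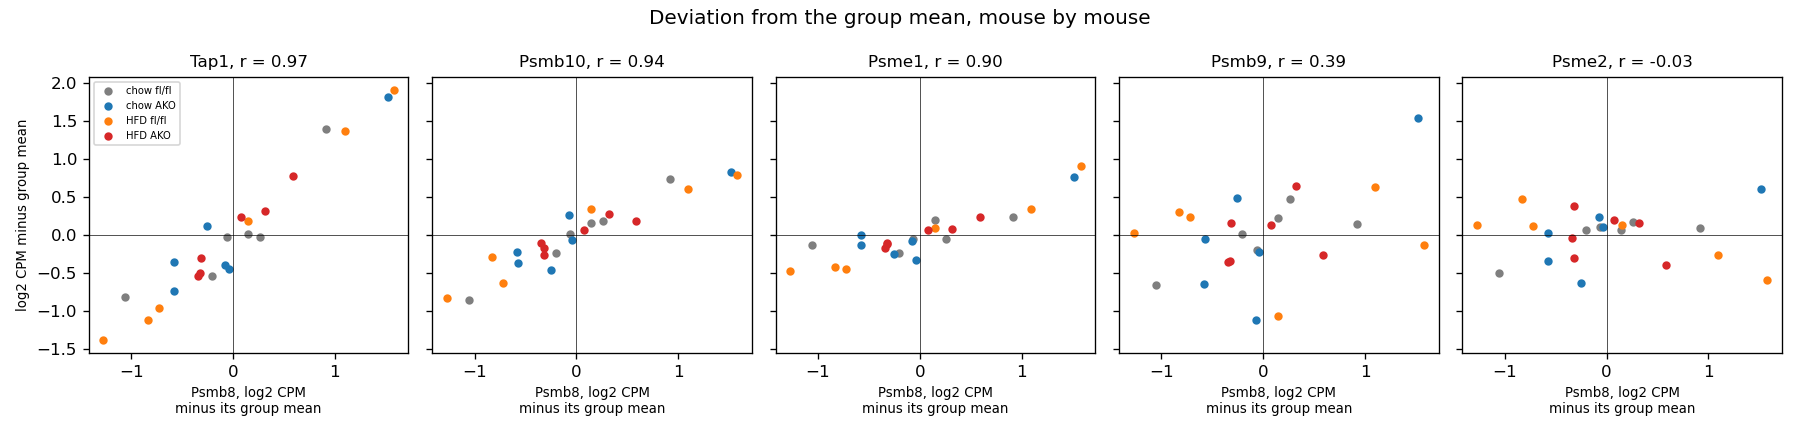
Deviation of log2 CPM from the group mean for *Tap1*, *Psmb10*, *Psme1*, *Psmb9* and *Psme2* (vertical axes) against that of *Psmb8* (horizontal axes), 1 point per mouse coloured by group. The first 3 panels lie along a line (r 0.97, 0.94 and 0.90), and the last 2 do not (r 0.39 and −0.03).

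The summed leukocyte level moved with some of these genes. Over the same deviations, the summed level of the 12 leukocyte markers had r 0.74 with *Psmb8* (adjusted permutation p = 0.00236), 0.72 with *Psmb10* (adjusted permutation p = 0.00678) and 0.83 with *Psmb6* (adjusted permutation p = 0.00014), and 0.64, 0.57 and 0.75 without chow-fed fl/fl mouse 1 and HFD-fed fl/fl mouse 4. It had r 0.47 with *Psme1* (adjusted permutation p = 0.123), 0.25 with *Psmb9*, 0.10 with *Psme2*, 0.37 with *Psmb5* and 0.14 with *Psmb7*, none of which passed. The first principal component of all other genes, 45.9% of their variance, had r 0.84 with *Psmb8*, 0.81 with *Psmb10*, 0.61 with *Psme1* and 0.88 with *Psmb6*, each with an adjusted permutation p of at most 0.0309. Its direction was set so that it rose with *Psmb6*, so the positive sign of these values is not itself a result. The part of leukocytes in the diet and genotype values was not tested.

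With 24 mice, few proteasome genes were called between diets. In fl/fl mice 0 of 49 were called at an adjusted p of at most 0.05, as were 0 of all 15020 genes (0%), with 3 proteasome genes and 1390 genes in all at an unadjusted p under 0.05. limma-voom called 0 genes and DESeq2 27, none a proteasome gene. In AKO mice 1 of 49 was called, *Psmc1*, against 22.5% of all genes, 9.06% higher and 13.5% lower with HFD. By the criteria of the study *Psmc1* was again the only one, against 4.28% of all genes. These were 1.5-fold or more, nominal p up to 0.001, and 2 CPM or more as the highest group mean. They were applied here to edgeR p-values of all 24 mice. The study applied them to limma p-values after removing outlying libraries, and its results text gives the floor as 2 log CPM. Averaged over genotypes 2 of 49 were called, *Psmc1* lower and *Psmd3* higher, against 13.3% of all genes (6.25% higher, 7.09% lower). The median log2 fold change of the 49 was 0.02 in fl/fl, 0.03 in AKO mice and 0.08 on average, beside 0.02, −0.00348 and 0.01 for all genes.

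*Psmc1*, an ATPase of the ring that pulls substrates into the core, fell with HFD in AKO mice. It lay between 190 and 361 CPM in the chow-fed AKO mice (median 292) and between 63.5 and 160 in the HFD-fed AKO mice (median 118), and these ranges did not overlap. The log2 fold change was −1.30 (SE 0.33, edgeR adjusted p = 0.0175), a ratio of 0.406. It was called without any of the 24 mice in turn, with values between −1.41 and −1.17 and an adjusted p of at most 0.0499. In fl/fl mice it lay between 131 and 335 CPM on chow (median 256) and between 59.9 and 294 on HFD (median 221), where mice 1 and 5 had 63.2 and 59.9 CPM and the other 4 had 206 to 294. That difference was −0.45 (SE 0.32, adjusted p = 0.681), or −0.27 without HFD-fed fl/fl mouse 5 and −0.66 without HFD-fed fl/fl mouse 4. The interaction was −0.85 (SE 0.46, adjusted p = 0.359), so that a difference between genotypes was not shown. Averaged over genotypes the change was −0.88 (SE 0.23, adjusted p = 0.0276), called in 22 of 24 fits with a mouse left out and lost without chow-fed fl/fl mouse 5 or chow-fed AKO mouse 3. Between genotypes on HFD it differed by −0.67 (SE 0.33, adjusted p = 0.338).

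*Psmd3*, a subunit of the lid of the regulatory particle, rose with HFD on average over genotypes, by 0.46 (SE 0.15, adjusted p = 0.0494). It lay between 127 and 278 CPM in chow-fed fl/fl (median 150), 154 and 206 in chow-fed AKO (median 193), 150 and 375 in HFD-fed fl/fl (median 231) and 181 and 292 in HFD-fed AKO mice (median 252). The groups overlapped, and chow-fed fl/fl mouse 3, at 278 CPM, was above the other 5 mice of its group, which had at most 156. The call held in 6 of 24 fits with a mouse left out, with adjusted p between 0.0101 without that mouse and 0.103 without HFD-fed fl/fl mouse 1, and was lost with limma-voom and without the expression filter. Within genotypes the differences were 0.53 in fl/fl (SE 0.22, adjusted p = 0.482) and 0.39 in AKO mice (SE 0.22, adjusted p = 0.180).

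**Figure D3:**
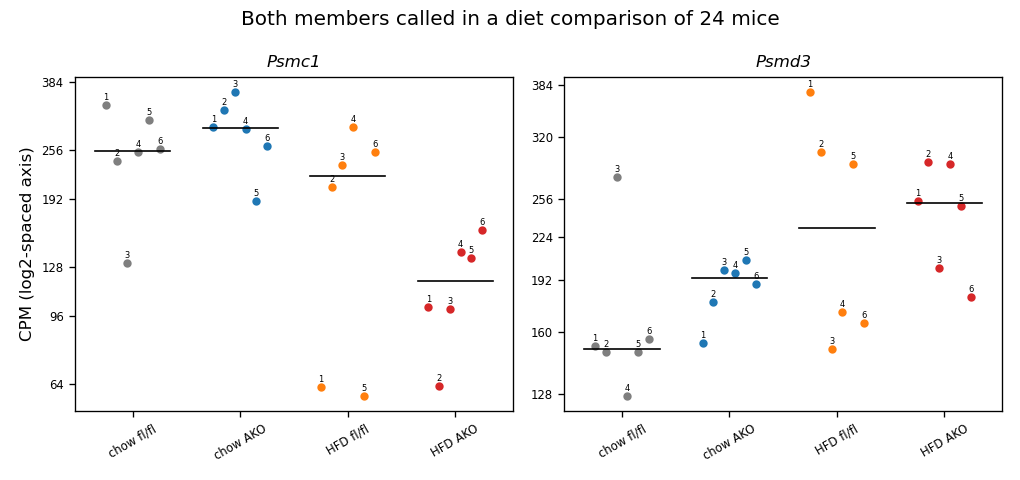
CPM of *Psmc1* and *Psmd3* on a log2-spaced axis, 1 point per mouse with its replicate number and a line at the median of each group of 6. The HFD-fed AKO mice had 63.5 to 160 CPM of *Psmc1*, all below the chow-fed AKO mice, whereas the groups overlapped for *Psmd3*.

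Values that moved with diet beside these calls were those of the cell type markers. In AKO mice 5 of 8 adipocyte markers (*Lep*, *Cfd*, *Lipe*, *Adipoq* and *Plin1*) 2 of 4 endothelial markers and 1 of 3 mesothelial markers (*Msln*) were lower with HFD, beside 13.5% of all genes. The medians of these lists were −1.12, −0.60 and −1.52. Higher were 1 of 12 leukocyte markers (*Cd68*) and 1 of 3 stromal markers (*Pdgfra*), beside 9.06% of all genes, with list medians of 0.71 and 0.69. The summed adipocyte level had a median of 29348 CPM in chow-fed and 10219 CPM in HFD-fed AKO mice. Their part in the change of *Psmc1* was not tested.

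Among the other ATPases, the values in AKO mice were above 0 without a call for *Psmc2* (0.34, SE 0.13, adjusted p = 0.0595) and *Psmc4* (0.44, SE 0.18, adjusted p = 0.0772). Of the non-ATPase subunits, *Psmd12*, which belongs to the lid, had 0.34 (SE 0.13, adjusted p = 0.0530) in AKO mice and 0.25 (SE 0.09, adjusted p = 0.0599) on average. It ranged from 63.3 to 76.6 CPM in chow-fed and from 65.5 to 106 in HFD-fed AKO mice, and these ranges overlapped. DESeq2 called *Psmc2* and *Psmd12* in AKO mice, and *Psmd12* and *Psmc4* on average.

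The 7 genes of the alpha ring, which gates the core, gave 0 calls with edgeR on 24 mice, and DESeq2 called *Psma1* in AKO mice and *Psma4* on average. *Psma1* had 0.36 in AKO mice (SE 0.14, adjusted p = 0.0595) and −0.19 in fl/fl mice (SE 0.14, adjusted p = 0.681), and the difference between these diet effects, 0.56 (SE 0.20, adjusted p = 0.250), was the one with the lowest p of the 49. *Psma4* had −0.65 in AKO mice (SE 0.28, adjusted p = 0.0917) and −0.52 on average (SE 0.20, adjusted p = 0.0713), from a range of 81.9 to 206 CPM in chow-fed and 71.0 to 135 in HFD-fed AKO mice. In fl/fl mice *Psma2* had −0.49 (SE 0.21, adjusted p = 0.489) and *Psma7* −0.34 (SE 0.21, adjusted p = 0.631). The chaperones *Psmd9* and *Psmd10*, which help assemble the base of the regulatory particle, had 0.31 (SE 0.14, adjusted p = 0.498) and −0.24 (SE 0.16, adjusted p = 0.655) there.

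**Figure D4:**
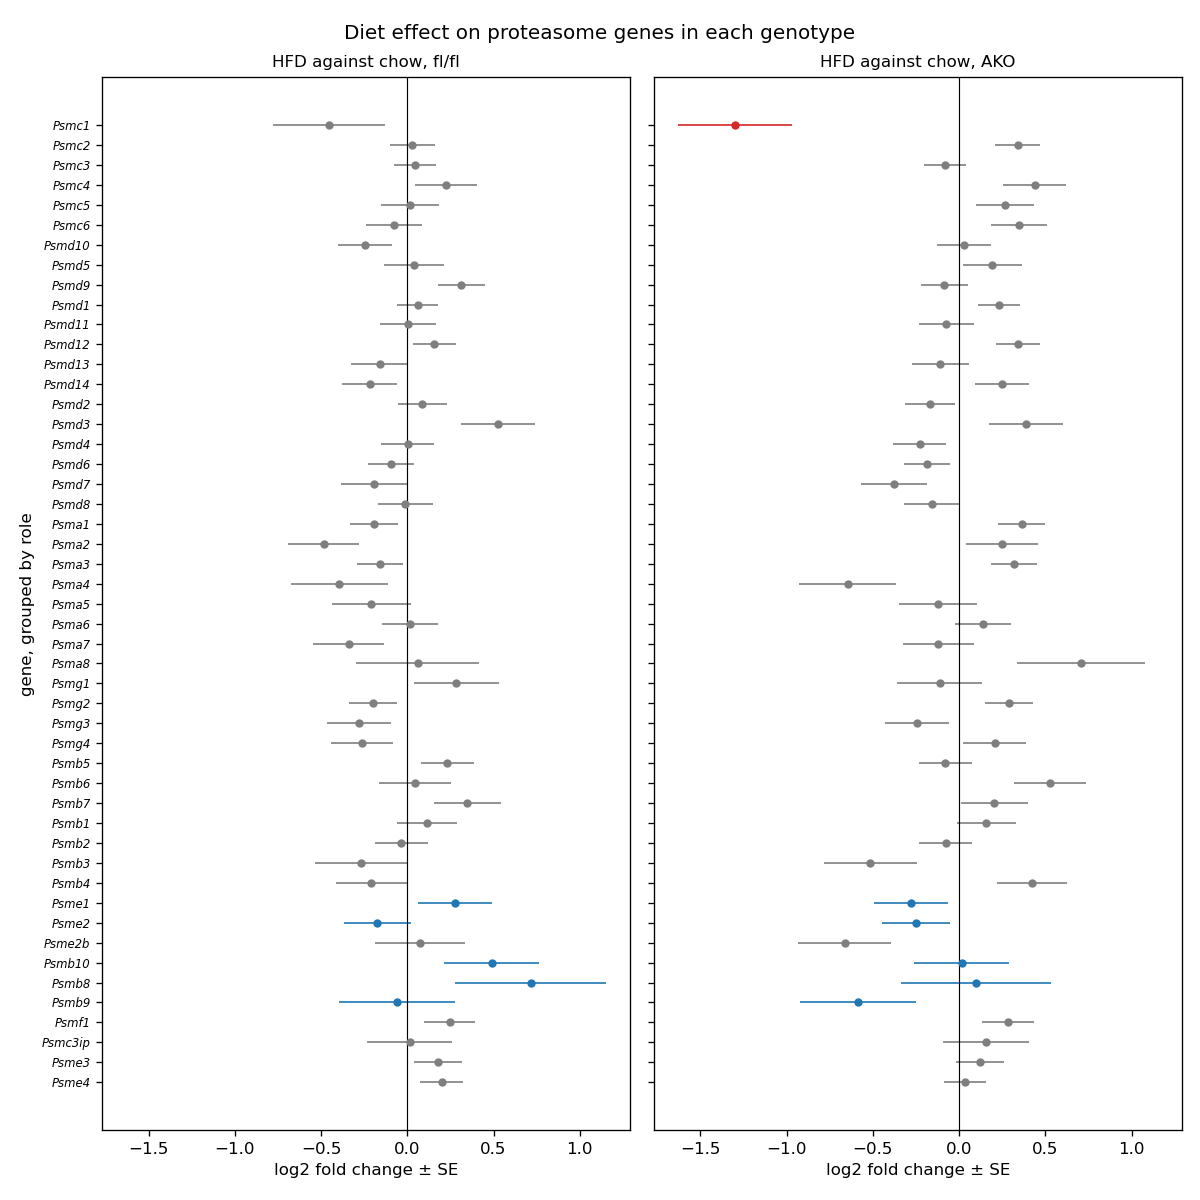
Log2 fold change with HFD ± SE of the 49 genes, grouped by role, in fl/fl mice (left) and AKO mice (right). Red marks a call at an adjusted p of at most 0.05, which only *Psmc1* reached in AKO mice (−1.30), and blue marks the immunoproteasome and its cap, with values between −0.17 and 0.72 on the left and between −0.59 and 0.10 on the right.

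The roles gave these medians in AKO mice: 0.30 for the 6 ATPases (4 above 0), −0.11 for the 11 non-ATPase subunits (4 above 0), 0.14 for the 7 alpha subunits (4 above 0), 0.20 for the 3 constitutive catalytic subunits (2 above 0) and −0.25 for the immunoproteasome and its cap (2 of 5 above 0). The same roles in fl/fl mice had medians of 0.02, 0.00, −0.21, 0.23 and 0.28. The median of all genes was −0.00348 in AKO and 0.02 in fl/fl mice.

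The remaining regulators gave no call with edgeR on 24 mice. In the 19 mice described last, *Psmf1* was called in fl/fl mice (0.56, adjusted p = 0.00665) and on average, and *Psme3* on average (0.24, adjusted p = 0.0396), and *Psmf1* was also called on average without chow-fed fl/fl mouse 3 or HFD-fed fl/fl mouse 3. *Psme3*, the nuclear activator, lay between 42.9 and 75.1 CPM over all mice and had HFD differences of 0.18 (SE 0.14, adjusted p = 0.713) in fl/fl and 0.12 (SE 0.14, adjusted p = 0.524) in AKO mice. *Psme4*, the activator PA200, lay between 94.6 and 167 CPM with 0.20 (SE 0.12, adjusted p = 0.638) and 0.03 (SE 0.12, adjusted p = 0.855). *Psmf1*, an inhibitor of the core, lay between 26.1 and 55.4 CPM with 0.24 (SE 0.15, adjusted p = 0.636) and 0.29 (SE 0.15, adjusted p = 0.156).

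Some of the 49 are not ordinary subunits. *Psmc3ip* encodes a partner of an ATPase that acts in meiotic recombination, and lay between 1.02 and 2.95 CPM. *Psma8*, the alpha subunit of male germ cells, lay between 0.492 and 2.51 CPM. *Psme2b*, a near copy of *Psme2* whose reads the counting could have split, lay between 1.25 and 4.53 CPM and had −0.66 with HFD in AKO mice (SE 0.27, adjusted p = 0.0730). None of these was called in any comparison of 24 mice, and *Psme2b* was called in AKO mice without HFD-fed AKO mouse 6 and in the 19 mice described last.

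Genotype gave no call among the 49. On chow 0 of 15020 genes were called (0%), and 5 of 49 proteasome genes had an unadjusted p under 0.05, beside 5.76% of all genes. All 5 were lower in AKO: *Psma1* (−0.37, SE 0.14), *Psma3* (−0.33, SE 0.13), *Psmg4* (−0.45, SE 0.18), *Psmc6* (−0.36, SE 0.16) and *Psma2* (−0.46, SE 0.21), with edgeR adjusted p between 0.811 and 0.844. On HFD 1 gene of all was called (0.00666%), and 2 of 49 proteasome genes had an unadjusted p under 0.05, beside 14.8% of all genes. *Psmg2*, a chaperone of core assembly, had the lowest p, with 0.34 (SE 0.14, adjusted p = 0.300). The other was *Psme2b*, at 1.25 to 4.53 CPM over all mice, with −0.57 (adjusted p = 0.324). *Psma4* had −0.47 (SE 0.28, adjusted p = 0.416), *Psmd14*, the deubiquitinase of the lid, 0.25 (SE 0.16, adjusted p = 0.441) and *Psmb4*, a structural beta subunit, 0.31 (SE 0.20, adjusted p = 0.451). All 5 immunoproteasome and cap genes had values below 0 on HFD, between −0.55 and −0.03, with adjusted p of at least 0.361, where 6752 of 15020 genes were above 0. In the 19 mice described last, *Psmb8*, *Psmb10* and *Psme1* had −1.19, −0.80 and −0.76 in this comparison (edgeR adjusted p between 0.155 and 0.254). In the same mice *Psmb9* and *Psme2* were above 0 (0.12 and 0.15).

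The interaction of diet and genotype gave 1 call among all genes (0.00666%) and none among the 49, of which 7 had an unadjusted p under 0.05, beside 15.6% of all genes. After *Psma1* came *Psma3* (0.47, SE 0.19), *Psmg2* (0.49, SE 0.19), *Psma2* (0.73, SE 0.29) and *Psmb4* (0.63, SE 0.29), with adjusted p between 0.268 and 0.303. DESeq2 called 5 genes on chow, 40 on HFD and 58 for the interaction, and none was a proteasome gene.

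**Figure D5:**
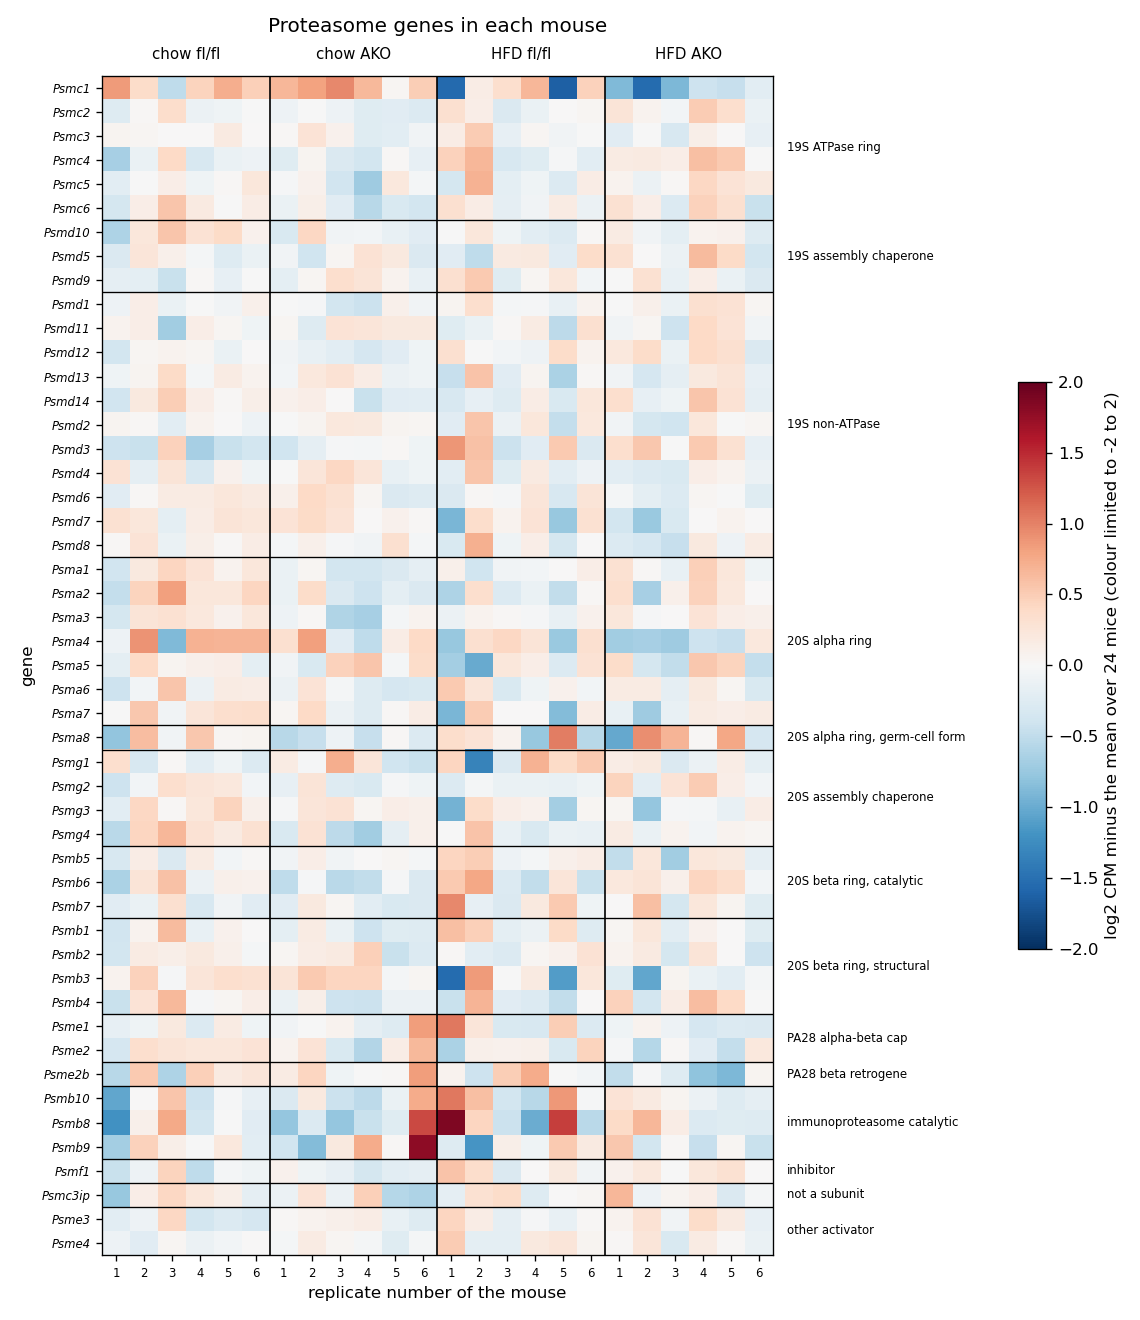
Log2 CPM of the 49 genes minus each gene's mean over 24 mice, with genes in rows grouped by role and mice in columns grouped by diet and genotype. *Psmb8*, *Psmb10* and *Psme1* are high together in HFD-fed fl/fl mice 1 and 5 and chow-fed AKO mouse 6, and *Psmc1* is low in HFD-fed fl/fl mice 1 and 5 and in the HFD-fed AKO mice.

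The mice used changed the picture in fl/fl mice most. The study removed outlying libraries, and an earlier analysis inferred 19 mice as those it kept, without chow-fed fl/fl mouse 3, chow-fed AKO mouse 5 and HFD-fed fl/fl mice 3, 4 and 6. The HFD-fed fl/fl mice left are 1, 2 and 5, the 3 highest in *Psmb8* of that group. Their summed adipocyte level was 8742 to 14318 CPM and their summed leukocyte level 3474 to 5434 CPM, against 23242 to 44743 and 1005 to 2969 CPM in mice 3, 4 and 6, and the part of these cells in the values was not tested. Because these mice were picked on expression, the p-values from them are too small. In them HFD called 13 of 49 proteasome genes in fl/fl mice, against 28.9% of 14863 genes, 7 in AKO mice, against 40.4%, and 18 on average, against 52%. Among fl/fl mice *Psmb8* rose by 1.58 (SE 0.43, edgeR adjusted p = 0.0103), *Psmb10* by 1.09 (SE 0.26, adjusted p = 0.00528), *Psme1* by 0.68 (SE 0.21, adjusted p = 0.0228) and *Psmd3* by 1.09 (SE 0.16, adjusted p = 0.000196), and *Psmc1* fell by 1.41 (SE 0.34, adjusted p = 0.00560). *Psmb9* had −0.19 and *Psme2* −0.46 in the same mice, without a call. The 13 genes called also included the constitutive catalytic subunits *Psmb6* and *Psmb7*, but not *Psmb5*. In AKO mice none of the 5 immunoproteasome and cap genes was called. Genotype and the interaction gave 0 calls of all genes in these mice with edgeR, and 4 proteasome genes on chow, 12 on HFD and 9 for the interaction had an unadjusted p under 0.05, or 8.16%, 24.5% and 18.4% of the 49, beside 8.49%, 11.1% and 12.3% of all genes.

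Genes that work with the proteasome were counted from lists of its associates. Of 7 regulators of subunit transcription, 2 fell with HFD in AKO mice, beside 13.5% of all genes. *Nfe2l1*, the factor that raises subunit genes when activity falls, lay between 142 and 268 CPM in chow-fed (median 214) and between 89.4 and 167 in HFD-fed AKO mice (median 93.8), a change of −0.94 (SE 0.26, adjusted p = 0.0211). In fl/fl mice its difference was 0.06 (SE 0.26, adjusted p = 0.961) and the interaction −1.01 (SE 0.36, adjusted p = 0.250). *Nfyb*, a subunit of the CCAAT-binding factor NF-Y, changed by −0.62 (SE 0.16, adjusted p = 0.0174) in AKO mice and by −0.51 (SE 0.11, adjusted p = 0.0154) on average.

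Of 10 assembly and associated factors in the table, 1 rose with HFD in AKO mice, *Pomp*, which completes the core (0.73, SE 0.27, adjusted p = 0.0497), and 1 on average, the ubiquitin receptor *Rad23b* (0.50, SE 0.15, adjusted p = 0.0375). Of 18 genes of interferon-gamma signalling and class I presentation, *Ifngr2*, a receptor chain, rose in AKO mice (0.60, SE 0.19, adjusted p = 0.0296) and *Pdia3*, of the peptide-loading complex, fell (−0.72, SE 0.25, adjusted p = 0.0429). The medians of the 3 lists in AKO mice were −0.11, 0.08 and −0.17 beside −0.00348 for all genes. The 1 of 10 is near the 9.06% of all genes called higher in AKO mice and the 6.25% on average, and the 2 of 18 are beside 22.5% called in either direction. None of these lists had a call in fl/fl mice, for genotype or for the interaction.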

How the data were processed

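RNA of eWAT from 24 mice was sequenced as QuantSeq 3′ libraries. The authors made the deposited counts, which are whole reads per gene. Their methods name the Lexogen QuantSeq pipeline on the Bluebee platform for mapping and count tables. They also name the Rsubread package as the source of raw count matrices. The authors also deposited a normalized signal, counts divided by size factors, used here only for gene symbols. The submitters' processing notes name R 4.0.3 and DESeq2 1.30. Gene positions were those of GENCODE release 21 on GRCm38 for all 49 genes. Whether counting used strand is not given in the sources used here, and 13 of the 49 genes overlap another counted gene, 6 of them within 1000 bases of the 3′ end (*Psma3*, *Psmb7*, *Psmc3*, *Psmc3ip*, *Psme1* and *Psme2b*).

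Counts were tested for every gene that reached 1 CPM in 3 or more mice, with TMM scaling and edgeR 4.0.16 quasi-likelihood tests (R 4.3.3) of 1 model of 4 groups, with Benjamini-Hochberg adjustment over 15020 genes and a threshold of 0.05. CPM were TMM-scaled and log2 values used a prior count of 2. Totals of 5579590 to 18764516 counts limit precision most for genes near 1 CPM. Counts were not divided by length, so levels were not ranked between genes. Alternatives were limma-voom (limma 3.58.1), DESeq2 1.42.0, other size factors, no filter, a replicate block, each mouse left out and 19 mice. The code was tested on simulated data.

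The members and lists were chosen with earlier results of these data known. Named with values were the immunoproteasome genes, the subunits they replace, the other regulators, tissue-restricted members, *Tap1*, *Nfe2l1* and, in each comparison, the 5 other members of lowest p. Mouse numbers only name mice, and the labels give no batch. Of 60 pairs of libraries within groups, none were duplicates (lowest chi-square per degree of freedom 5.72).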

Additional observations from a re-analysis of the deposited data

Results flagged for a closer look

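In 124 groups of 6 mice (31 genes), 12 had a mouse whose gap to the nearest other, over the range of the group, was above Dixon's 95% critical value. Chance flags about 1 in 20 independent groups of normally distributed values. The CPM used here were not log-transformed, and the genes share mice and were partly chosen by lowest p. The share flagged therefore cannot be set against that rate. In chow-fed AKO mice, mouse 6 stood apart for *Psmb8* at 282 CPM (the others 65.9 to 95.9) and for *Psme1* at 229 CPM (the others 107 to 135). Mouse 2 of that group had 299 CPM of *Psma2* (the others 172 to 210) and 55.8 CPM of *Psmd10* (the others 33.9 to 40.2).

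In chow-fed fl/fl mice, mouse 3 was high for *Psmb7* at 224 CPM (the others 144 to 171), *Psme3* at 73.9 CPM (42.9 to 51.5) and *Psmd3* at 278 CPM (127 to 156). Mouse 1 was low for *Psme2* at 75.2 CPM (111 to 121). In HFD-fed fl/fl mice, mouse 2 had 48.7 CPM of *Psmg4* (26.4 to 32.5) and 399.8 CPM of *Psmb4* (177 to 250). In HFD-fed AKO mice, mouse 1 had 2.95 CPM of *Psmc3ip* (1.46 to 1.99) and mouse 6 had 135 CPM of *Psma4* (71.0 to 87.4).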

How the results depend on the processing

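The number of proteasome genes called between diets depended most on the mice used. In the 19 mice it was 13 in fl/fl, 7 in AKO and 18 on average, against 0, 1 and 2 with all mice. The shares of all genes called were 28.9%, 40.4% and 52% in the 19 mice, and 0%, 22.5% and 13.3% with all mice. The cause was not tested beyond the smaller set of mice. DESeq2 called 5 in AKO mice, beside 4330 of 15020 genes, and 5 on average, beside 3284. On average, limma-voom, no filter on low counts and the criteria of the study each called 1. All genes called were then 1954 of 15020, 1962 of 16730 and 345 of 15020. With each mouse left out the count was 1 to 7 in AKO mice and 0 to 6 on average. The 7 came without HFD-fed AKO mouse 6, beside 4158 of 15006 genes. On average the count was 0 without chow-fed fl/fl mouse 5 (528 of 15001 genes) or chow-fed AKO mouse 3 (529 of 14993). It was 6 without chow-fed fl/fl mouse 3, beside 3815 of 14993 genes. The genotype and interaction counts were 0 under every alternative run. On average, all genes called numbered 2004 with edgeR, 3284 with DESeq2 and 873 with the block.

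With the replicate block 1 proteasome gene was called on average, since *Psmd3* was lost, and 1 in AKO mice, beside 873 and 2485 of 15020 genes. Same-numbered mice of different groups had a median r of 0.00181 (−0.53 to 0.71), and 5 of 24 mice were closest to their own number, so the numbers were not taken as pairs.

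Some differences changed sign, none of them called. *Psmb9* in fl/fl mice was 0.03 and 0.0812 without chow-fed or HFD-fed fl/fl mouse 2, in a range of −0.20 to 0.0812 with each mouse left out. *Psmb10* in AKO mice was −0.00393 with DESeq2, −0.00363 with other size factors, −0.00585 in 19 mice, and −0.03, −0.06, −0.07 and −0.01 without chow-fed AKO mouse 1, 3, 4 or 5, and −0.05 and −0.02 without HFD-fed AKO mouse 1 or 2, in a range of −0.0719 to 0.23. *Psmb8* in AKO mice was −0.02, −0.02 and −0.04 without chow-fed AKO mouse 1 or 3 or HFD-fed AKO mouse 2, in a range of −0.0392 to 0.60. *Psmc1* between genotypes on HFD, −0.67 in 24 mice and −0.85 to −0.46 with each mouse left out, was 0.15 in 19 mice.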

Other observations

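A set of 7 proteasome genes (*Psma2*, *Psma7*, *Psmb3*, *Psmc1*, *Psmd7*, *Psmd13* and *Psmg3*) had their 3 lowest levels in the same 3 mice, HFD-fed fl/fl mice 1 and 5 and HFD-fed AKO mouse 2. This was noticed after the values were seen and was not tested, and the share of all genes with this pattern was not counted. *Psmb3*, a structural beta subunit, had 32.4, 43.4 and 45.8 CPM in these mice and 80.0 to 170 in the other 21. *Psma7*, an alpha subunit, had 140, 145 and 160 CPM, against 220 to 383. *Psmd7*, of the lid, had 85.0, 94.8 and 95.7 CPM, against 124 to 207. *Psmg3*, an assembly chaperone, had 17.1, 20.4 and 19.1 CPM, against 28.3 to 45.1. The gap was narrow for *Psma2* (151, 163 and 146 CPM, against 165 to 410) and *Psmd13* (114, 102 and 125 CPM, against 135 to 234). HFD-fed fl/fl mouse 1, among the lowest for these, had the highest level of all mice for 8 others, which included *Psmb8*, *Psmb10* and *Psme1*. HFD-fed fl/fl mouse 2 was the highest for 13.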
